A study of Mus musculus with 16 samples.

Results

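The genes considered here are *Gdf15* and 31 genes that lie around it on mouse chromosome 8. They were given as a list of 32 symbols, and all 32 were found among the 49066 gene symbols measured in brown adipose tissue (BAT). The members were chosen by position on chromosome 8, but the list was drawn up with the high *Lrrc25* and the low *Gdf15* of the male KO mice already known, so both genes are described between genotypes and not tested there. In the GENCODE M21 annotation (GRCm38) the outermost members span 956 kb, with 19 members on the side of *Lrrc25*, as far as 636.1 kb, and 12 on the side of *Pgpep1*, as far as 230.8 kb from the *Gdf15* start site. *Lrrc25* is the nearest gene, its gene body 7.9 kb from that of *Gdf15* and on the opposite strand, so that the 3' ends face each other. *Pgpep1* lies on the same strand as *Gdf15*, 14 kb away on the side of the *Gdf15* start.

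Bulk mRNA of BAT was sequenced from 8 males and 8 females, 4 of each sex WT and 4 KO, at 18 weeks of age, after 12 weeks of a high-fat diet (HFD) with 60% of its energy from fat. KO mice (GDF15 BKO) were homozygous for a floxed *Gdf15* allele and carried a *Ucp1*-Cre transgene, which is active in thermogenic adipocytes. WT mice were littermates homozygous for the same floxed allele without Cre, so both genotypes carried the altered allele and only KO mice carried the transgene. Because Cre acts in *Ucp1*-expressing cells, the other cells of BAT keep the gene, and the study's methods as read here do not say which exons the floxed allele loses. Values are TPM, transcript abundances divided by length and scaled so that a library's total is 1000000. In bulk tissue, fewer cells of a type and less RNA per cell cannot be told apart. All 12 brown adipocyte markers, *Ucp1* among them, had a mean of at least 1 TPM in both sexes.

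GDF15 belongs to the TGF-beta superfamily and, as a circulating hormone, curbs appetite by way of neurons that carry GFRAL. BAT is known to make it when thermogenic cells are activated or their mitochondria are disturbed. LRRC25 is a leucine-rich repeat membrane protein found mainly in myeloid cells. PGPEP1 is a peptidase that removes pyroglutamate from the amino end of peptides. The other genes have unrelated housekeeping, signalling and structural roles, and what they share is their place beside a deleted gene, which is why neighbours are examined in knockout tissue.

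The 2 sequences that the description turns on are printed here 5' to 3'. The coding sequence of *Lrrc25-201* identifies the transcript that carried nearly all of the *Lrrc25* signal. Its first 300 of 891 coding bases, from GENCODE M21, are shown with the start codon in capitals. The 250 bases before the annotated start of *Gdf15-202*, the transcript that carried nearly all *Gdf15* signal, are from RefSeq (GRCm38.p6, chr8:70632457-70632706, minus strand).

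Lrrc25-201 coding start: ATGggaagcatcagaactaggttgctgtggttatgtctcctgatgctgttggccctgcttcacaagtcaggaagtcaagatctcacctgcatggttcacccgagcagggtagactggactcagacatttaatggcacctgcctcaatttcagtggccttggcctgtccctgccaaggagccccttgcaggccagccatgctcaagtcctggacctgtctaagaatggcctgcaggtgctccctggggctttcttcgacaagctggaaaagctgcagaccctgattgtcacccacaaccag

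Gdf15-202 upstream: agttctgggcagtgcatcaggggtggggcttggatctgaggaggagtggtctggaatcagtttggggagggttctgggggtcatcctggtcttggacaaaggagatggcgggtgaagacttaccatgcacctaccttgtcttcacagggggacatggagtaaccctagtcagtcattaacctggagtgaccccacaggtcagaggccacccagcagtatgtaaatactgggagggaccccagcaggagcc

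The *Gdf15* sequence is all in lower case because it holds none of the 3 motifs searched on both strands (CACGTG for the E-box, TGANTCA for AP-1 elements, and TGATGNAA for composite C/EBP and ATF elements). The second annotated start, that of *Gdf15-201*, lies downstream of the first, and its window holds the E-box. That window overlaps the transcribed first exon of *Gdf15-202* and is not printed. RefSeq windows (250 bases before to 50 after a start) were found for 27 members in 34 windows. The E-box was in 11.8% of these, in windows of *Gdf15*, *Ifi30*, *Mau2* and *Sugp2*, and in 7.15% of all 32851 windows. The AP-1 element was in 2.94% of them (*Gatad2a*) and in 7.81% of all windows, and the C/EBP and ATF element was in 0 member windows and in 3.97% of all. The tables held no window for *Lrrc25*, *Kxd1*, *Comp*, *Lsm4* and *Il12rb1*. Of the 1876 31-base words in *Lrrc25-201*, 1804 occur in no other annotated gene, as do all 1350 of *Gdf15-202* and 4852 of the 4853 of *Pgpep1-201*.

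*Gdf15*, the targeted gene, was lower in the KO mice of each sex and was near the bottom of the scale in females. In male WT mice it was at 0.368, 0.690, 1.55 and 3.81 TPM, and in male KO mice at 0.0915, 0.0801, 0.255 and 0.272 TPM. Female WT mice had 0.0622, 0.311, 0.170 and 0.290 TPM. In female KO mice it was listed at 0 in 3 libraries and at 0.0794 TPM in replicate 3. The male groups did not overlap, as was the case for 10.2% of the genes tested in males, and the male WT values spread over a wide range. The female groups overlapped, because female KO replicate 3 stood above female WT replicate 1.

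The male KO mean of *Gdf15* was 0.109 times the WT mean, a log2 difference of -1.38 on the log2(TPM + 0.5) scale used throughout, which understates changes of low genes. The log2 difference in females was -0.43. With a mean TPM under 1, *Gdf15* was below the level at which genes were tested. Within the libraries whose names start with 9, the only prefix that held males of both genotypes, *Gdf15* was at 2.68 TPM in 2 WT mice and 0.202 TPM in 3 KO mice. The labels do not say what these prefixes mark.

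*Lrrc25*, the gene next to the *Gdf15* 3' end, was high in the 4 male KO mice and low in the other 12 mice. Male WT mice had 0.326, 0.638, 0.317 and 0.681 TPM of *Lrrc25*, and male KO mice had 2.12, 5.75, 4.67 and 7.33 TPM. Female WT mice had 0.470, 0.424, 0.443 and 0.379 TPM. In female KO mice *Lrrc25* was at 0.640, 0.712, 0.855 and 0.461 TPM. The lowest male KO mouse stood above the highest of the other 12 mice, a female KO mouse with 0.855 TPM. The female groups overlapped at female KO replicate 4. Male groups did not overlap for 10.2% of the genes tested in males, and the high male *Lrrc25* was known beforehand.

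**Figure D1:**
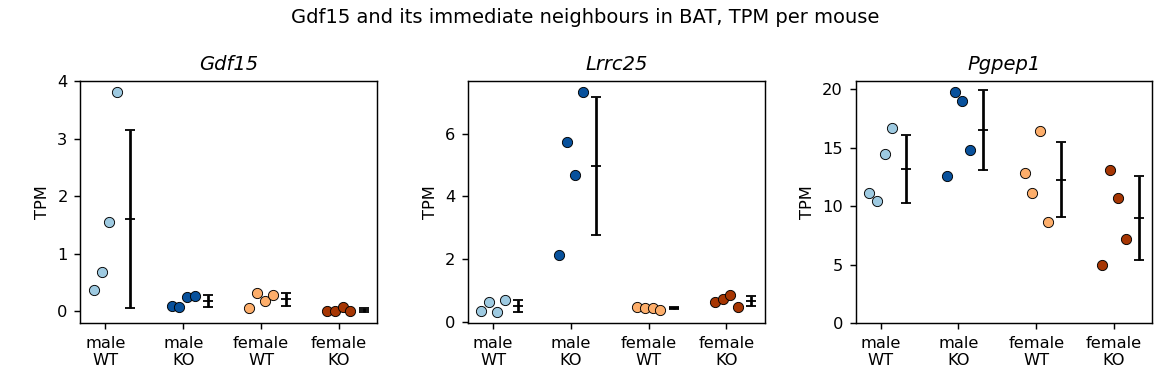
TPM of *Gdf15*, *Lrrc25* and *Pgpep1* (y axes, linear, from 0) in each of the 16 mice, by sex and genotype. Points are mice, and the bar beside each group is the mean ± SD (n = 4). *Lrrc25* lay between 2.12 and 7.33 TPM in male KO mice and between 0.317 and 0.855 TPM in all others, and *Pgpep1* overlapped between genotypes in both sexes.

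The mean of *Lrrc25* was 0.491 ± 0.196 TPM in male WT and 4.97 ± 2.19 TPM in male KO mice (SD, n = 4), a ratio of 10.1 and a log2 difference of 2.38 ± 0.32 (SE). In females it was 0.429 ± 0.0380 and 0.667 ± 0.164 TPM, a log2 difference of 0.32, and with a mean under 1 TPM it was not among the female genes fitted. The female difference was smaller than the male difference by a log2 value of -2.06 (female minus male). Among males with prefix 9, *Lrrc25* was at 0.499 TPM in 2 WT mice and 5.92 TPM in 3 KO mice, a log2 difference of 2.69. Leaving out each male in turn kept the male log2 difference between 2.17 and 2.70. These values describe a difference known when the list was drawn up. In males *Lrrc25* reached the minimum mean of 1 TPM through the KO mice alone. In all 4 male KO libraries the whole signal was on *Lrrc25-201*, and its mean share of the *Lrrc25* TPM was 96.0% in male WT, 100% in female WT and 98.4% in female KO mice. The second transcript, *Lrrc25-202*, was above 0 in 2 libraries, at 0.0513 and 0.0563 TPM.

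Markers of macrophages, a myeloid cell type, moved with *Lrrc25* in males. Of all genes tested in males, 79.9% were higher in KO mice, with a median log2 difference of 0.16. Of 20 macrophage markers, 19 were higher and 1 lower in male KO mice, with a median log2 difference of 0.89. Their summed level ran from 63.6 to 125.6 TPM in male WT and from 160 to 247.2 TPM in male KO mice, and the marker score (mean log2(TPM + 0.5) of the 20) from 1.29 to 1.97 and from 2.17 to 2.72. The scores of the male groups did not overlap, and no marker was at 0 in every library.

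The log2 differences of the male macrophage markers ran from -0.03 for *Aif1*, a cytoskeletal protein of macrophages, to 1.82 for *Lgals3*, a galectin, and 0 of the 20 exceeded the 2.38 of *Lrrc25*. The 4 male KO mice had the same order by *Lrrc25* and by score, replicate 4 highest and replicate 1 lowest. In each of the other groups the 2 orders differed. Among female KO mice, replicate 3 had the highest *Lrrc25* (0.855 TPM) with a score of 1.82. The highest score there, 2.09, was that of replicate 1, with 0.640 TPM. Of all genes tested in females, 62.7% were higher in KO mice, with a median log2 difference of 0.10. Among the markers, 14 were higher and 6 lower in females, with a median log2 difference of 0.08. In females 6 of the 20 markers exceeded the 0.32 of *Lrrc25*. After median-of-ratios rescaling, in which each library is divided by its median ratio to the average library, 10 were higher and 10 lower in females, and 18 higher and 2 lower in males. The female scores overlapped (1.48 to 2.26 in WT and 1.71 to 2.09 in KO mice). Female WT replicate 3 had a score of 2.26, above the 2.17 of male KO replicate 1, with *Lrrc25* at 0.443 TPM against 2.12 TPM. The part of macrophage number or state in the male *Lrrc25* difference was not tested.

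**Figure D2:**
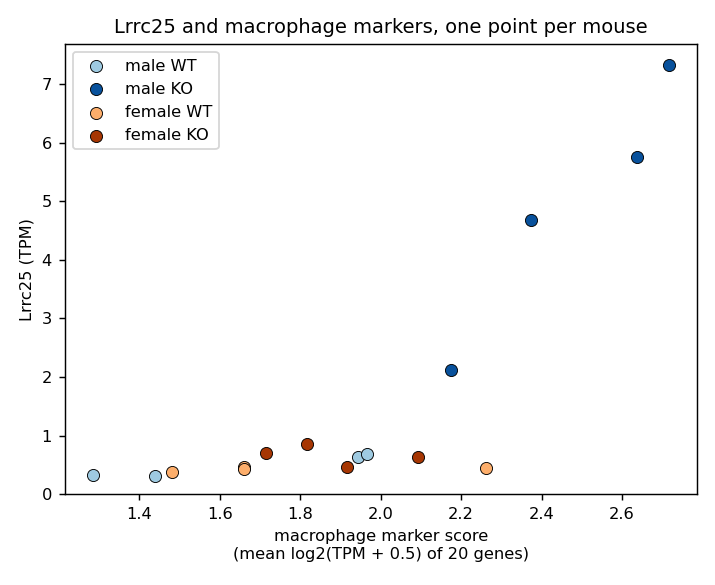
*Lrrc25* TPM (y axis) against the macrophage marker score, the mean log2(TPM + 0.5) of 20 markers (x axis), with 1 point per mouse coloured by group. The 4 male KO mice stand highest on both axes except for female WT replicate 3, which had a score of 2.26 with 0.443 TPM of *Lrrc25*.

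Among the other myeloid lists, monocyte and dendritic cell markers were higher for 8 of 10 genes in male KO mice (6 of 10 after rescaling). Their median log2 difference was 0.17, and 3 of the 10 averaged at least 1 TPM in males. Over all genes tested in males 79.9% were higher, with a median of 0.16. Neutrophil markers were higher for 2 of 6 in male KO mice, with a median of -0.07. All 8 fibroblast markers were higher in male KO mice, with a median log2 difference of 0.68 and summed levels of 108.7 to 191.1 TPM in WT and 229.1 to 240.4 TPM in KO mice. All 6 endothelial markers were higher in each sex, though 5 of 6 in males after rescaling. Their median log2 difference was 0.36 in males and 0.75 in females. Over all genes tested in females 62.7% were higher, with a median of 0.10. Lymphocyte markers had a median of -0.07 in males, and 0 of the 10 reached a mean of 1 TPM. *Il12rb1*, the shared beta-1 chain of the IL-12 and IL-23 receptors, was at or under 0.270 TPM in every library. Skeletal muscle markers varied widely within every group, from a summed 1.84 TPM to 3696 TPM over all libraries. Of the 12 brown adipocyte markers, 4 were higher and 8 lower in male KO mice, with a median of -0.07. In female KO mice 10 were higher and 2 lower, with a median of 0.23. The scores of this list overlapped between genotypes in both sexes.

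*Pgpep1*, the neighbour on the other side, did not pass the test in either sex. It was at 11.1, 10.5, 14.4 and 16.7 TPM in male WT and at 12.6, 19.8, 19.0 and 14.8 TPM in male KO mice. In female WT mice it was at 12.8, 11.2, 16.4 and 8.70 TPM, and in female KO mice at 5.00, 13.1, 10.7 and 7.22 TPM. The groups overlapped in both sexes. The log2 differences were 0.32 ± 0.19 (SE) in males and -0.48 ± 0.29 in females, the lowest of the tested members in females (limma, adjusted p = 0.373 and 0.403). Median-of-ratios rescaling brought the male value from 0.32 to 0.15, and the median over all genes tested in males from 0.16 to 0.00. The difference between the sexes was -0.80 (limma, adjusted p = 0.350). Female values within prefixes were unlike each other, at -1.28 for 1 WT and 1 KO mouse of prefix 10 and -0.13 for 3 WT mice and 1 KO mouse of prefix 8b.

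The shares of the 2 leading *Pgpep1* transcripts were tested, and neither passed in either sex. *Pgpep1-201*, its leading coding transcript, made up 43.6% of the gene's TPM in male WT and 39.0% in male KO mice, and *Pgpep1-208* 35.0% and 34.1%. Exact two-sided permutation tests of these shares gave p = 0.371 and p = 0.914 (n = 4 against 4, smallest possible p 0.0286). In females the shares of *Pgpep1-201* were 46.6% and 49.3%, and those of *Pgpep1-208* 31.4% and 33.1% (exact permutation p = 0.686 and p = 0.857). The non-coding *Pgpep1-207* was at 1.99, 1.44, 2.37 and 1.12 TPM in female WT mice and at 0, 0.772, 0 and 1.06 TPM in female KO mice. Its share of the gene's TPM was 13.9 ± 1.28% in female WT and 5.13 ± 6.92% in female KO mice (SD, n = 4), given here as a description, since this transcript was picked after its values were seen.

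None of the members other than *Gdf15* and *Lrrc25*, which were described without a test, passed between KO and WT in males. Of the remaining 30 members, 27 had a mean of at least 1 TPM in males and were tested, 0 of them through one genotype alone. At an adjusted p of 0.05 (limma), 0 of them passed, where 0.00821% of all 12177 genes tested did. Male differences were small and pointed upward: 27 were higher and 0 lower, with log2 differences from 0.02 to 0.49, where 79.9% of all genes were higher, but 9 of the 27 changed sign after median-of-ratios rescaling and 7 without mitochondrial transcripts. The median of the 27 was 0.20, beside 0.16 over all genes. At an unadjusted p of 0.05, 5 members were higher, where 17.7% of all genes were higher and 18.7% differed in either direction.

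Those 5 members were *Gatad2a*, *Ssbp4*, *Upf1*, *Pik3r2* and *Rab3a*, which lie on both sides of *Gdf15*. *Gatad2a*, a subunit of the NuRD chromatin remodelling complex and the farthest member from *Gdf15*, was at 12.5, 15.4, 14.6 and 15.9 TPM in male WT and at 18.03, 20.6, 19.2 and 19.7 TPM in male KO mice. *Upf1*, the helicase of nonsense-mediated mRNA decay, was at 7.46, 10.9, 9.55 and 10.7 TPM in male WT and at 12.3, 12.7, 13.5 and 12.3 TPM in male KO mice. These were the 2 tested members whose male groups did not overlap, where 10.2% of all genes had groups that did not overlap. The log2 difference was 0.40 ± 0.10 for *Gatad2a* and 0.39 ± 0.12 for *Upf1* (SE, limma, adjusted p = 0.166 and 0.203).

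*Ssbp4*, of a family of single-stranded DNA binding proteins and the gene beyond *Lrrc25*, was at 10.6, 14.98, 13.9 and 11.3 TPM in male WT and at 14.4, 21.9, 17.7 and 18.4 TPM in male KO mice. The groups overlapped at WT replicate 2 and KO replicate 1, and the log2 difference was 0.49 ± 0.16 (limma, adjusted p = 0.203). *Pik3r2*, a regulatory subunit of phosphoinositide 3-kinase, differed by 0.34 and *Rab3a*, a GTPase of regulated secretion, by 0.32 on the log2 scale (limma, adjusted p = 0.235 and 0.246). Within the males of prefix 9 the log2 differences were 0.37 for *Gatad2a*, 0.32 for *Upf1* and 0.60 for *Ssbp4*. After median-of-ratios rescaling, under which the median of all genes fell from 0.16 to 0.00, the log2 values were 0.24 for *Gatad2a*, 0.23 for *Upf1*, 0.33 for *Ssbp4*, 0.18 for *Pik3r2* and 0.16 for *Rab3a*.

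Females gave a similar count with other genes in front. Of 27 members tested, 0 passed at an adjusted p of 0.05, as did 0% of the 12141 genes tested. Here 21 were higher and 6 lower, where 62.7% of all genes were higher, and the median of the 27 was 0.25 beside 0.10 over all genes. At an unadjusted p of 0.05, 3 members were higher and 0 lower, where 11.6% of all genes were higher and 17.1% differed in either direction.

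*Mast3*, a microtubule-associated serine/threonine kinase, was at 1.54, 1.39, 2.31 and 1.79 TPM in female WT and at 2.85, 3.36, 2.45 and 2.53 TPM in female KO mice. It was the 1 tested member whose female groups did not overlap, where 8.09% of all genes did not overlap. Its log2 difference was 0.56 ± 0.17 (SE, limma, adjusted p = 0.231). *Pde4c*, a phosphodiesterase that breaks down cAMP, was at 2.70, 1.10, 1.65 and 1.89 TPM in female WT and at 5.58, 2.67, 2.67 and 5.02 TPM in female KO mice. KO replicates 1 and 4 were well above the rest and the other KO mice were level with the highest WT mouse, so that the groups overlapped, and the log2 difference was 0.92 ± 0.29 (limma, adjusted p = 0.231).

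*Ifi30* is known as the gene of a lysosomal thiol reductase of antigen presentation. The table held 1 matched transcript of it, *Ifi30-202*, which GENCODE M21 types as a processed transcript and not as protein coding, so the values are of that transcript. It was at 9.41, 5.89, 8.30 and 6.72 TPM in female WT and at 15.2, 10.6, 8.24 and 10.0 TPM in female KO mice. Its groups overlapped, and the log2 difference was 0.50 ± 0.20 (limma, adjusted p = 0.269). In males *Ifi30* had a log2 difference of 0.48 ± 0.24 (limma, adjusted p = 0.306), and *Pde4c* one of 0.20, which was -0.02 within prefix 9. *Cope*, a coatomer subunit of vesicle transport, and *Arrdc2*, an arrestin domain protein, differed by 0.41 and 0.45 in females (limma, adjusted p = 0.307 and 0.351).

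**Figure D3:**
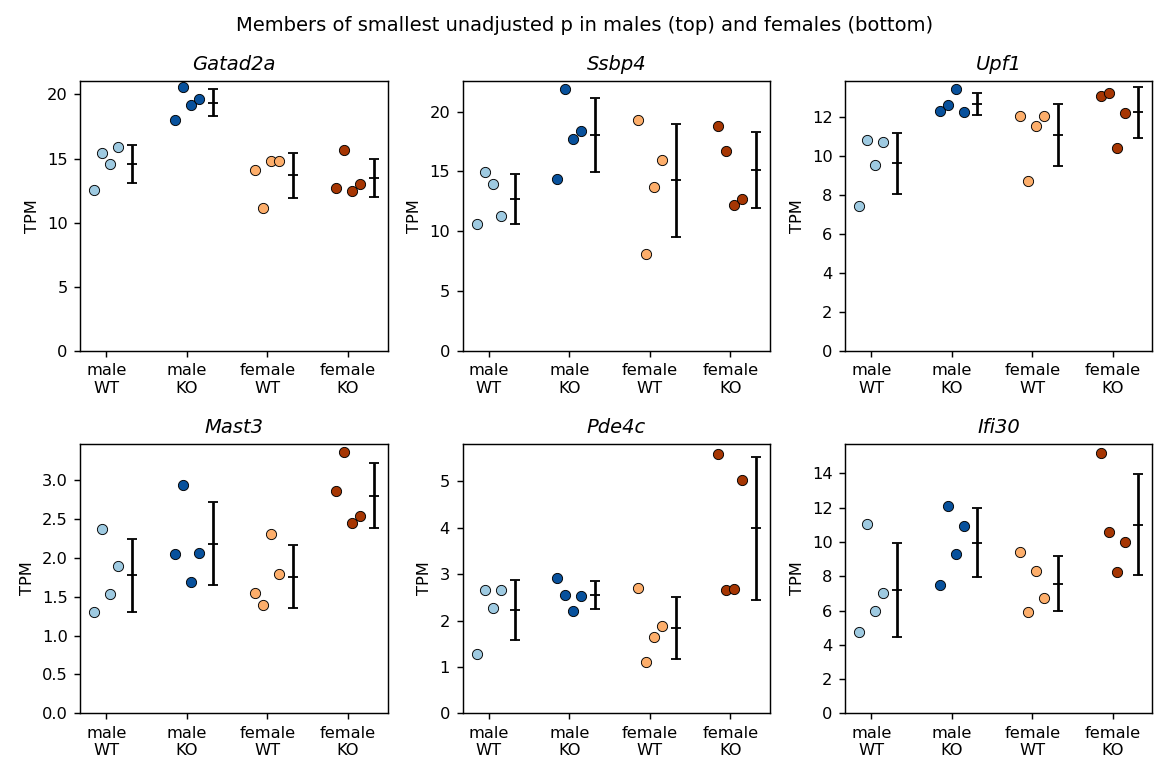
TPM (y axes, linear, from 0) of the 3 tested members of smallest unadjusted p in each sex, for each of the 16 mice. The top row holds those of males (*Gatad2a*, *Ssbp4*, *Upf1*) and the bottom row those of females (*Mast3*, *Pde4c*, *Ifi30*). Points are mice and bars the mean ± SD (n = 4). Groups do not overlap for *Gatad2a* and *Upf1* in males and for *Mast3* in females, and none of these genes passed an adjusted p of 0.05.

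The effect of genotype over both sexes was fitted on all 16 libraries. Likewise, 0 of the 27 tested members passed an adjusted p of 0.05 (limma), where 2.95% of 12210 genes passed. That share rests on 360 genes, and 12 genes passed with the library prefix as a covariate and 60 with the replicate number as a block. Of 27 members, 26 were higher and 1 (*Pgpep1*) lower, with 4 changing sign after median-of-ratios rescaling, where 75.5% of all genes were higher, and the median was 0.21 beside 0.13. At an unadjusted p of 0.05, 10 were higher, where 21.4% of all genes were. The smallest adjusted p was 0.0868, for *Mast3*, with a log2 difference of 0.40 (limma). Without male WT replicate 2 the count rose from 0 to 3: *Mast3* at 0.46, *Ifi30* at 0.60 and *Arrdc2* at 0.56 (limma, adjusted p = 0.0406, 0.0284 and 0.0378). That mouse had the highest *Ifi30* (11.04 TPM), *Mast3* (2.37 TPM) and *Arrdc2* (6.27 TPM) of the male WT group. The share of all genes passing without that mouse was not counted, so the 3 cannot be set beside one. The median over all genes went from 0.13 to 0.15 without it.

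Whether genotype acted differently in males and females was tested as an interaction. There, 0 of 27 members passed an adjusted p of 0.05 (limma), as did 0% of all genes tested. *Gatad2a*, with a female minus male difference of -0.42, and *Pgpep1* were the 2 with an unadjusted p under 0.05, where 14.2% of all genes had one (limma, adjusted p = 0.271 for *Gatad2a*).

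The differences did not fall off steadily with distance from *Gdf15*. Among the 27 tested members, with *Lrrc25* left out, the median log2 difference in males was 0.32 for 7 members within 100 kb of the *Gdf15* start. It was 0.19 for 10 members between 100 and 200 kb and 0.23 for 10 members beyond 200 kb. In females the 3 medians were 0.12, 0.22 and 0.25. Spearman's rho between the distance and the log2 difference was -0.13 in males and 0.11 in females, over 27 genes that share the same libraries, as a description. By side, the male medians were 0.19 for 16 members on the side of *Lrrc25* and 0.32 for 11 on the side of *Pgpep1*, and the female medians 0.20 and 0.28.

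**Figure D4:**
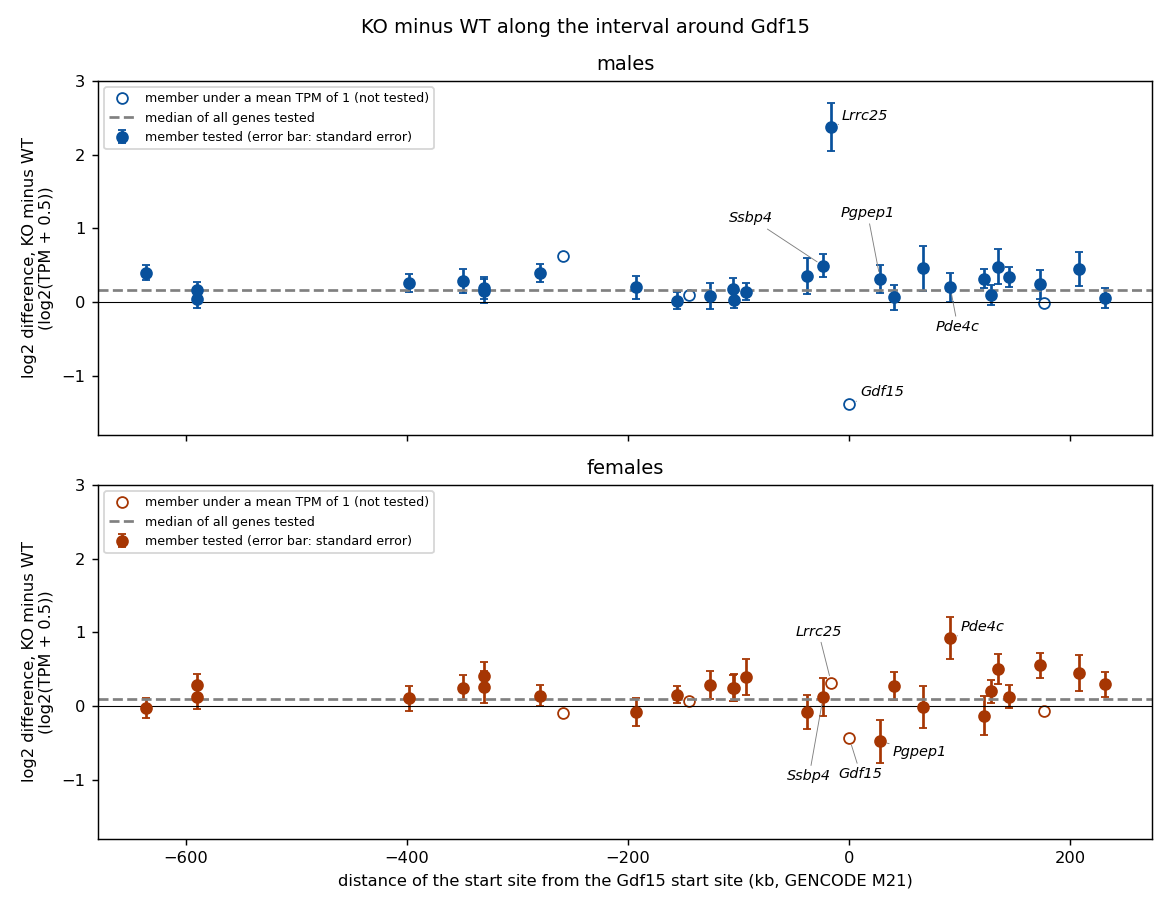
Log2 difference between KO and WT (y axis, on log2(TPM + 0.5)) of each member against the distance of its start site from that of *Gdf15* in kb (x axis, GENCODE M21), in males (top) and females (bottom). Filled points are members fitted, with the SE as bar, open points are members under a mean of 1 TPM, and the dashed line is the median of all genes tested (0.16 and 0.10). In males *Lrrc25* stands at 2.38 and the other fitted members between 0.02 and 0.49.

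The interval holds 25 more annotated genes that are not on the list, 22 of them in the table. In males 10 of these could be tested, with 9 higher and a median log2 difference of 0.18. Over all genes tested in males 79.9% were higher, with a median of 0.16. *Hapln4*, a hyaluronan link protein chosen here after its values were seen, had the largest difference at 0.63 (limma, adjusted p = 0.163), 549 kb from *Gdf15*. In females 8 of 10 were higher with a median of 0.24, and 0 passed the test in either sex.

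*Gdf15* also differed in level between WT mice of the 2 sexes, given without a test because the low *Gdf15* of male KO mice, by which the list was drawn up, was set against the same male WT mice. The 4 male WT mice, from 0.368 to 3.81 TPM, stood above the 4 female WT mice, from 0.0622 to 0.311 TPM. Male WT libraries have the prefixes 5 and 9 and female WT libraries 10 and 8b. Sex and prefix therefore cannot be told apart in any comparison of the WT sexes. Male WT *Gdf15* was at 0.368 and 0.690 TPM in prefix 5 and at 1.55 and 3.81 TPM in prefix 9. The difference, female minus male, was -1.31 on the log2 scale. Groups did not overlap between the WT sexes for 1.92% of all genes tested. *Lrrc25* overlapped between the WT sexes, with a difference of -0.07.

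Among the 27 members tested between the WT sexes, 0 passed an adjusted p of 0.05, where 0.0664% of all genes did, and 0 had groups that did not overlap. *Isyna1*, the enzyme that makes inositol phosphate from glucose 6-phosphate, was the 1 member with an unadjusted p under 0.05, where 3.43% of all genes had one. It was at 1.24, 2.91, 3.08 and 2.50 TPM in male WT and at 6.57, 2.76, 3.40 and 4.59 TPM in female WT mice, a log2 difference of 0.71 ± 0.29 (limma, adjusted p = 0.9999). Male WT replicate 1 was the lowest and female WT replicate 1 the highest. *Klhl26*, a Kelch-like protein, was 0.21 higher in females, and *Rab3a* and *Mpv17l2*, a factor of mitochondrial ribosome assembly, had differences of -0.22 and -0.19.

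Transcripts of the members gave no called difference either. The table listed 197 transcripts of the 32 genes, of which 180 were above 0 in some library and 71 had a mean of at least 1 TPM. In males 69 transcripts of 27 genes were tested, with those of *Lrrc25* left out. Of the 69, 0 passed an adjusted p of 0.05, where 0.0290% of all 24129 transcripts did. An unadjusted p under 0.05 was found for 5, where 12.7% of all had one. *Gatad2a-202* had the smallest p of these, with a log2 difference of 0.47 (limma, adjusted p = 0.248). In females 0 of 67 passed, where 0.0124% of 24194 did, and 9 had an unadjusted p under 0.05, 8 higher and 1 lower, where 16.1% of all did.

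Of the 67 transcripts tested in females, 4 (*Pde4c-207*, *Pgpep1-207*, *Rex1bd-205* and *Rex1bd-206*) had a mean under 1 TPM in one genotype and reached the minimum through the other, as did 2 of the 69 in males (*Kxd1-204* and *Mast3-201*). For these the minimum depends on the difference itself, so none is tested singly here, though the counts above include them. Those counted with an unadjusted p under 0.05 include *Mast3-201* in males. In females they include *Pde4c-207*, *Rex1bd-205* and *Pgpep1-207*, the last being the 1 that was lower. *Upf1* had an unadjusted p under 0.05 on *Upf1-202* in males, at 0.32, and on *Upf1-201* in females, at 0.77. In males *Upf1-201* was also higher, at 0.63 ± 0.30 (SE), and in females *Upf1-202* was at -0.08. The difference between the sexes was not tested by transcript. All *Gdf15* signal was on *Gdf15-202* in 12 libraries and on *Gdf15-201* in male KO replicate 1, at 0.0915 TPM, while 3 libraries were listed at 0. The 2 *Gdf15* transcripts share 1045 31-base words and differ in 470 and 305, mainly in the first exons.

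By level, the highest members were *Kxd1*, a lysosome-positioning factor, *Fkbp8*, a chaperone of the mitochondrial outer membrane, *Cope*, *Rex1bd* and *Lsm4*, a subunit of the ring that binds U6 RNA, with means over all mice of 69.2, 65.2, 57.8, 52.6 and 38.7 TPM. *Gdf15* averaged 0.502 TPM, and *Comp*, *Tmem59l* and *Il12rb1* were the other members under 1 TPM in every comparison. None of the 5 highest passed the test. Their log2 differences lay between 0.03 and 0.19 in males and between 0.25 and 0.41 in females. After median-of-ratios rescaling the male values were -0.13 for *Kxd1*, -0.10 for *Lsm4*, -0.087 for *Rex1bd*, 0.015 for *Fkbp8* and 0.024 for *Cope*, so the direction turned in 3 of the 5. The remaining tested members were *Ell* (transcription elongation), *Crtc1* (a CREB coactivator), *Ddx49* (an RNA helicase), *Homer3* (a scaffold protein), *Sugp1* and *Sugp2* (splicing-related), *Mau2* (cohesin loading), *Jund* (a subunit of AP-1) and *Kcnn1* (a potassium channel). Their log2 differences ran from 0.05 for *Mau2* to 0.46 for *Jund* in males and from -0.08 for *Crtc1* to 0.40 for *Ell* in females, and each overlapped between genotypes in both sexes. *Jund* ranged widely within a group, from 12.7 to 39.7 TPM in male WT mice.

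*Comp*, a cartilage matrix protein that fibroblasts also secrete, was low throughout and is named after its values were seen. It was at 0.0850, 0.0355, 0.0239 and 0.202 TPM in male WT and at 0.479, 0.390, 0.326 and 0.423 TPM in male KO mice, with no overlap, as for 10.2% of the genes tested in males. Female WT mice had 0.0314 to 0.315 TPM and female KO mice 0 to 0.281 TPM, which overlapped. Being under 1 TPM it was not tested.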

How the data were processed

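Groups and replicate numbers came from the sample labels. The authors assigned single-end reads to transcripts with kallisto 0.46.2 (GRCm39, per the labels) and deposited TPM, so the read depth is unknown, and no counting error is given. Of 137438 transcript identifiers, 135051 matched GENCODE M21 without version and were summed per symbol. Unmatched identifiers held 0.333 to 17.7% and mitochondrial transcripts 34.5 to 59.8% of a library's TPM. No library equalled another. M21 is on GRCm38, so it gave gene order and distance only.

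TPM + 0.5 was log2 transformed, genes averaging 1 TPM or more in the compared libraries were fitted with limma 3.58.1 (R 4.3.3, eBayes with trend), and p-values were adjusted over all genes (Benjamini-Hochberg, 0.05). The authors' DESeq2 test needs counts and was not run. The procedure was tested on simulated data. Single values were compared with exact two-sided permutation tests. The labels do not say that mice came from separate litters, so p-values measure only the spread between these samples.

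Members, marker lists, tests and alternatives were chosen with earlier results of these data known. Genes named are *Gdf15*, its 2 immediate neighbours, members past the threshold, the 5 of smallest p in each of 3 comparisons (KO with WT in males and in females, female with male WT), and the 5 of highest level. *Hapln4*, *Rab3a* in the male comparison, *Comp* and single transcripts were named after their values were seen. Same-numbered mice did not correlate in every pair, so no pairing was used.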

Additional observations from a re-analysis of the deposited data

Results flagged for a closer look

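Single libraries stood apart from the other 3 of their group in 6 of 116 member and group combinations examined. Chance gives about 1 in 20 for independent values without ties. The combinations share the same libraries, so the count cannot be set strictly against that rate. Female WT replicate 2 was low for *Gatad2a* at 11.1 TPM (others 14.1 to 14.8), for *Pik3r2* at 5.84 TPM (others 8.75 to 8.91) and for *Upf1* at 8.75 TPM (others 11.6 to 12.1). Male WT replicate 2 was high for *Klhl26* at 5.43 TPM (others 4.16 to 4.34) and for *Sugp2* at 13.3 TPM (others 10.0 to 10.4). *Gdf15* was at 0.0794 TPM in female KO replicate 3 and listed at 0 in the other female KO libraries, so any value above 0 would have stood apart there.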

How the results depend on the processing

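No count of members or of their transcripts past the threshold changed with the pseudocount (1 or 0.1), the TPM minimum (none or 5; 0.1 for transcripts), median-of-ratios scaling, removal of mitochondrial transcripts, the trend, the library prefix or a shared fit of all libraries. With each library left out in turn the count ran from 0 to 3 for the mean of both sexes. It was 0 in every other comparison. The 3 came without male WT replicate 2, where the share of all genes passing was not counted. Directions of small differences did depend on the scale: in males 9 of 27 members changed sign under median-of-ratios scaling and 7 of 27 without mitochondrial transcripts. The male log2 difference of *Lrrc25* was 1.92 with a pseudocount of 1 and 3.03 with 0.1. The prefix could not be fitted between the WT sexes, since it is confounded with sex there.

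Same-numbered mice did not consistently deviate together: 3 of 8 pairs had a correlation over 0.1, and these 3 matched their own number best (correlations from -0.0855 to 0.350 in males and from -0.109 to 0.146 in females). With the replicate number as a block, 0 members passed in each comparison, and the count over all genes for the mean of both sexes went from 360 to 60. That count was 12 with the library prefix as a covariate, 54 with no TPM minimum and 177 with a minimum of 5, and it was 473 under median-of-ratios scaling, 452 without mitochondrial transcripts and 385 with a pseudocount of 0.1. In males the count over all genes went from 1 to between 0 and 40, the latter in a shared fit of all libraries, and in females from 0 to between 0 and 8, the latter with the prefix as a covariate.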
